A study of Mus musculus with 5 samples.

Results

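DNA methylation was examined at 2330 CpGs of the HoxC and HoxD clusters among the 1780536 autosomal CpGs measured in 5 mouse libraries. The members were the CpGs in chr15:102740000-102880000 (HoxC) and chr2:74480000-74620000 (HoxD), in mm9, with a second count of at least 10 in every library. The second count is what remains of the deposited total once the methylated count is taken off, except in K9M replicate 2, as described below. HoxC held 892 such CpGs of 1487 listed in any library, and HoxD held 1438 of 2057. Both windows span 140 kb. Methylation can bear on the choice, since a higher methylated count leaves a smaller second count in 4 of the 5 libraries. By the level in K9M replicate 2, CpGs at 50% or more made up 9.47% of the 380 HoxC and 9.27% of the 356 HoxD CpGs listed in all libraries and left out, against 0.785% and 2.43% of those kept. In HoxA and HoxB the same shares were 28.2% and 30.99% of those left out and 20.2% and 18.9% of those kept. Some CpGs were left out only by a library other than K9M replicate 2. Of these, 3.28% of 122 in HoxC and 4.59% of 109 in HoxD were at 50% or more. In HoxA and HoxB it was 29.2% of 130 and 33.3% of 99. The rest of those left out had a second count under 10 in K9M replicate 2 itself, where methylation does not reduce it. Just inside the limit, at a lowest second count of 10 or 11, the median level was 5.29% over 44 HoxC CpGs and 7.12% over 44 HoxD CpGs. Just outside it, at 8 or 9, it was 5.35% over 38 and 4.99% over 48.

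Hox genes encode homeodomain transcription factors that give cells their position along the body axis, and in mammals they lie in 4 clusters in which gene order follows the order of their domains along that axis. The clusters are rich in CpG islands, and where their genes are silent they are classically held by Polycomb complexes with trimethylation of histone H3 lysine 27, usually without dense DNA methylation. Genes of HoxA and HoxB are the Hox genes best known in hematopoietic stem and progenitor cells, while HoxD genes act mainly in limb, genital and trunk development and HoxC genes in the trunk and skin.

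The libraries comprised 1 WT, 2 K36M and 2 K9M samples. K36M and K9M name dominant negative forms of the histone variant H3.3, altered at lysine 36 or lysine 9, and the mutant mice received doxycycline at 2 mg/ml in the drinking water. No inducer is given for WT, so genotype and doxycycline cannot be told apart. The source is given as HSCs, hematopoietic stem cells, but the growth protocol describes cells sorted from peripheral blood. Strain, age, sex, transgene promoter and sort markers are not given in the sources used here, and methylation levels alone offer no check of the cell type. Nothing says that replicates came from separate animals, so the spread between these libraries may be technical. P-values use a moderated estimate of that spread where it exceeds counting error, in 40.7% of the cluster tiles. In the rest they rest on counting error. Reduced representation bisulfite sequencing cuts DNA with MspI at CCGG and therefore reads mainly CpG-rich fragments. Deposited totals per library ranged from 111738339 to 174743796 over 3356656 to 3534966 listed CpGs. At the members, the median second count per library was 39 to 50 in HoxC and 42 to 56 in HoxD.

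Levels below are relative levels, in percent of the library's plateau. K9M replicate 2 was deposited on a scale of its own, a reading inferred from its values. In the 4 remaining libraries the deposited total was therefore split into a methylated count and a second count, and in K9M replicate 2 the total itself was the second count. The ratio of methylated to second count was divided by the plateau, the median ratio of the 20% of 1 kb tiles with the highest mean rank. Plateaus were 1.23 (WT), 1.22 and 1.26 (K36M), and 1.37 and 0.954 (K9M). The second count is therefore not a number of reads, and at highly methylated CpGs of those 4 libraries the methylated count can exceed it. In K9M replicate 2, where the second count is the deposited total, the methylated count does not exceed it. Intervals treat both counts as a binomial split and are approximate. Single CpGs can pass 100% on this scale, and a change that scales a whole library cannot be seen on it.

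Of 25 genes listed for both clusters, 9 had a start that could be placed on mm9 by the spacing of its CpGs. The promoters are RefSeq sequences of build GRCm38.p6, 250 bases before to 50 bases after the start, and each was laid on the CpG positions of the files without converting coordinates. In 6 genes (Hoxd12, Hoxd11, Hoxd10, Hoxd9, Hoxd4 and Hoxd1) every CpG of the sequence had a listed position. For Hoxd4 this rests on only 4 CpGs, with 3 matched at the next best place, so its placement is weaker than those of the other 5, which match 13 to 29 CpGs. Hoxc4, Hoxd13 and Hoxd3 matched at 6 of 9, 33 of 37 and 9 of 20 CpGs, under a looser rule chosen after the values were seen. All 9 placed sequences hold at least 1 CCGG (searched as CCGG, which reads the same on both strands), as do 52.8% of 32851 promoter sequences of that length. Evx2 and Hoxd8, which hold no CCGG in this window, and Hoxd3os1, which holds 1, were not placed. In HoxC only Hoxc4 had a promoter sequence to place.

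The 250 bases before the start are printed for the promoter with the highest level (Hoxd4), the next highest (Hoxd12), a promoter dense in CpGs with a low level (Hoxd1) and the one placed in HoxC (Hoxc4). Every CG is in capitals, and all 4 lie on the plus strand. Their mm9 positions by CpG spacing are chr2:74559785-74560034 for Hoxd4, chr2:74512820-74513069 for Hoxd12, chr2:74600787-74601036 for Hoxd1 and chr15:102864576-102864825 for Hoxc4.
Hoxd4: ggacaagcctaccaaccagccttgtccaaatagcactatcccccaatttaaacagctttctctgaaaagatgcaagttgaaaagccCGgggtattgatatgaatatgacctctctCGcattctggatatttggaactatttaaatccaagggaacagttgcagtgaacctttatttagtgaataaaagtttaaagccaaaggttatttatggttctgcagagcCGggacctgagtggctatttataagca
Hoxd12: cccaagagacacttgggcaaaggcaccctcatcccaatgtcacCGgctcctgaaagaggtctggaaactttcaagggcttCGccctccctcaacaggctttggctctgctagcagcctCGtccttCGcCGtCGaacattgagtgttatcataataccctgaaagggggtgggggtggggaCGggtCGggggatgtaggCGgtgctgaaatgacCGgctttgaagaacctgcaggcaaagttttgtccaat
Hoxd1: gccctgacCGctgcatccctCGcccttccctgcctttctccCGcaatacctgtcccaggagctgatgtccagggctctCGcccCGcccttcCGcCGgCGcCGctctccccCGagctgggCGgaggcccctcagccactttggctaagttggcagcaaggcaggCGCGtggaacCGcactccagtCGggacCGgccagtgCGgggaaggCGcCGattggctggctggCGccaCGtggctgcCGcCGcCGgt
Hoxc4: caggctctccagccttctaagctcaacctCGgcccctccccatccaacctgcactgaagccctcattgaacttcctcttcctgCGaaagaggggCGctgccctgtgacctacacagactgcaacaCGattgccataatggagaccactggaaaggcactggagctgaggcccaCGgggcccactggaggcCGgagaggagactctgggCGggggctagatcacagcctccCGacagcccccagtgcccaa
These stretches hold 3 CGs in Hoxd4, 10 in Hoxd12, 24 in Hoxd1 and 8 in Hoxc4.

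Taken over all its CpGs, each cluster carried a low level that varied little between libraries. In HoxC the pooled level was 6.70% in WT (95% exact interval 6.48% to 6.92%, counting error only), 7.69% and 6.24% for K36M, and 6.71% and 6.73% for K9M. The K36M values (mean 6.96% ± 1.03, SD, n = 2) lay on both sides of WT. In HoxD the level was 7.14% in WT (6.97% to 7.32%), 8.44% and 7.15% for K36M, and 6.57% and 6.61% for K9M. As means over tiles, where CpG-poor tiles weigh as much as CpG-rich ones, HoxD was at 13.9% in WT, 15.1% in K36M and 13.4% in K9M. Both K9M libraries (mean 6.59% ± 0.0270, n = 2) were below WT and below both K36M libraries (mean 7.79% ± 0.914, n = 2). K36M replicate 2 was at the WT level and K36M replicate 1 above it. These pooled levels were not tested. The 140 kb on either side of each window had a higher pooled level, at 23.9% to 25.1% across libraries over 364 CpGs beside HoxC and 25.99% to 32.9% over 144 CpGs beside HoxD. The median CpG beside HoxD was nonetheless at 0.776%, under the 3.29% of HoxD itself.

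Few of the kept sites of either cluster were highly methylated. A methylated count was found in all 5 libraries at 432 of 892 HoxC CpGs and at 645 of 1438 HoxD CpGs. These shares of 48.4% and 44.9% compare with 37.5% in HoxA, 44.3% in HoxB and 56.0% of all autosomal CpGs. No library had a methylated count at 3.36% of HoxC and 4.03% of HoxD CpGs, against 12.3% in HoxA, 6.40% in HoxB and 11.8% of all. Both kinds of share depend on depth, which was not matched to that of all CpGs. Over all listed CpGs, kept or not, the median second count per library was 15 to 19, under that of the members. The median CpG was at 4.21% in HoxC and 3.29% in HoxD. CpGs with a mean level between 5% and 20% made up 35.7% of HoxC and 31.8% of HoxD, against 12.4% in HoxA, 16.7% in HoxB and 4.12% of all autosomal CpGs. The share was similar in every library taken alone, at 33.4% to 36.7% in HoxC and 28.3% to 33.9% in HoxD. CpGs at 50% or more numbered 6 in HoxC (0.673%) and 34 in HoxD (2.36%). In HoxA and HoxB they made up 19.02% and 18.06%, and in the whole set 48.4%.

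HoxA and HoxB differed in the shape of the distribution. The pooled WT level was 17.5% in HoxA and 16.6% in HoxB, windows of the same length around their placed promoters. The HoxA window was centred between Hoxa5 and Hoxa13 and the HoxB window between Hoxb8 and Hoxb3os, all placed by the looser rule. Hoxb3os was added to the list after the values were seen. In those windows 16 of 60 and 17 of 57 tiles stood at 50% or more, against 0 of 58 in HoxC and 6 of 55 in HoxD. The other tiles of HoxA and HoxB were more often near the floor, with 26 and 23 tiles under 5%, against 18 in HoxC and 16 in HoxD. Tiles between 5% and 20% were the commonest class in both windows, 35 in HoxC (60.3%) and 32 in HoxD (58.2%), while they were 17 in HoxA, 9 in HoxB and 4.32% of all 152678 tiles. These counts are descriptions, and no test was made of the difference between clusters, since tiles of 1 cluster are not independent.

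CpG density was compared, because RRBS tiles with many CpGs are usually CpG islands and are usually unmethylated. Among tiles with at least 20 CpGs, the median level was 5.94% over 15 HoxC tiles (range 1.72% to 16.6%) and 5.20% over 26 HoxD tiles (0.832% to 14.9%). It was 2.59% over 24 HoxA tiles, 2.98% over 17 HoxB tiles and 0.866% over all 19305 such tiles. Of these dense tiles, 53.3% in HoxC and 57.7% in HoxD lay between 5% and 20%, and 7.89% did so in the whole set. In each library alone the HoxC median was 3.91% to 6.75% and the HoxD median 4.35% to 6.58%, all above the all-tile median of 0.786% to 1.01%. All 41 dense tiles of HoxC and HoxD were under 20%. Over tiles, level fell with the number of CpGs about as in the whole set, with Spearman's rho of -0.358 in HoxC (58 tiles), -0.377 in HoxD (55 tiles) and -0.327 over all tiles. Tiles of a window share libraries and neighbours, so these coefficients are descriptions.

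**Figure D1:**
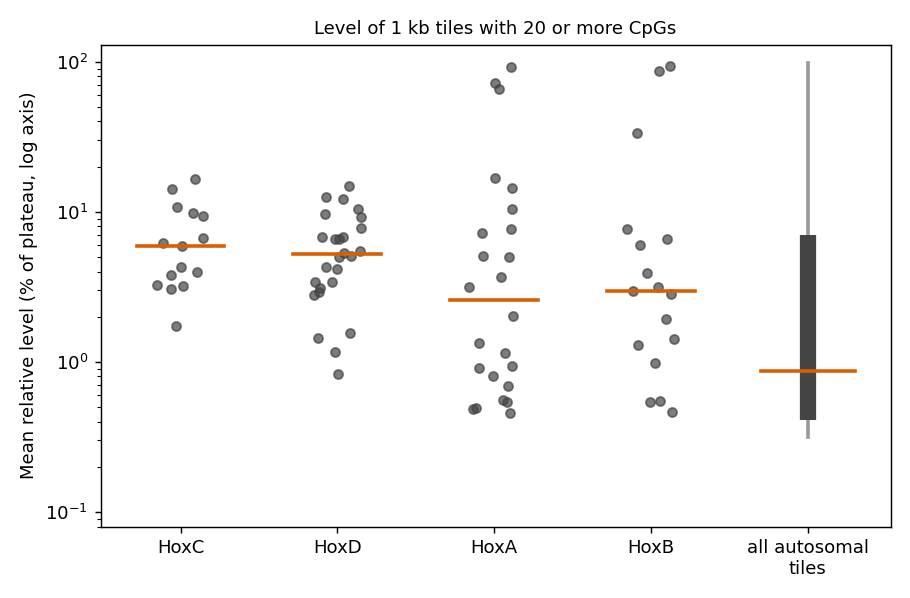
Mean relative level over the 5 libraries, in percent of the plateau on a log axis, for 1 kb tiles with 20 or more CpGs. Each point is a tile, orange lines are medians, and for all autosomal tiles the thick bar spans the 25th to 75th percentile and the thin line the 5th to 95th percentile. HoxC and HoxD points lie under 20% with medians of 5.94% and 5.20%, while HoxA and HoxB have tiles near the floor and a few above 50%.

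Along HoxC the level formed a shallow, uneven profile with 5 of the 58 tested tiles, those of at least 3 CpGs, above 20% and none above 50%. The highest tested tile, chr15:102799001-102800000 with 4 CpGs, was at 41.7% in WT, 47.8% and 31.3% for K36M, and 29.8% and 38.8% for K9M. The K36M libraries lay on both sides of WT and both K9M libraries were below WT, with a mean of 37.9% over the 5. Tiles at chr15:102815001-102816000 (33.8%), chr15:102784001-102785000 (32.9%), chr15:102764001-102765000 (27.6%) and chr15:102846001-102847000 (26.5%) came next. The sixth, chr15:102779001-102780000, averaged 18.5%. These 6 tiles held 3 to 10 CpGs each.

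The CpG-rich tiles of HoxC averaged under 20%. The tile with the most CpGs, chr15:102751001-102752000, held 59 and was at 4.10% in WT, 4.67% and 3.59% for K36M, and 4.43% and 4.57% for K9M. Its neighbour chr15:102752001-102753000 held 47 CpGs and was at 9.45% in WT, 11.3% and 10.1% for K36M, and 7.53% and 8.84% for K9M. Here both K36M libraries exceeded WT and both K9M libraries fell below it, by an amount that did not pass the test (K36M against K9M, adjusted p = 0.395, moderated logistic model). One more CpG-rich tile, chr15:102785001-102786000 with 45 CpGs, averaged 3.80% and its groups overlapped. Another with 45 CpGs, chr15:102812001-102813000, was at 3.05% in WT, 2.62% and 2.61% for K36M, and 3.93% and 3.79% for K9M, groups that did not overlap and did not pass the test (K36M against K9M, adjusted p = 0.278, same model). The tile chr15:102857001-102858000, with 20 CpGs, was at 13.1% in WT, 22.3% and 13.6% for K36M, and 12.5% and 9.48% for K9M. K36M replicate 1 stood apart there, and the difference of 6.93 points between the mutants did not pass (adjusted p = 0.421, same model).

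HoxD was low over most of its length with a methylated stretch that began just upstream of the Hoxd4 start and ended before Hoxd1. The tile with the most CpGs of either cluster, chr2:74543001-74544000 with 123, was at 0.960% in WT, 0.773% and 0.932% for K36M, and 0.824% and 0.672% for K9M. It includes a placed start of Gm38462, a gene added to the list after it was seen in the window, whose promoter averaged 1.34%. The tile chr2:74520001-74521000, with 108 CpGs around the placed Hoxd11 start, averaged 4.16%, and chr2:74536001-74537000, with 88 CpGs just past the Hoxd9 start, averaged 3.09%. At the 5′ end of the window, 5 CpGs of chr2:74480001-74481000 were at 89.4% in WT, 93.3% and 90.2% for K36M, and 80.3% and 95.1% for K9M.

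The methylated stretch covered chr2:74558001-74568000 and held 61 CpGs, among them 22 of the 34 HoxD CpGs at 50% or more. More of its CpGs, 27 of the 61, were under 20%. Its boundaries were chosen after the levels were seen. Its pooled level was 35.0% in WT (32.8% to 37.4%), 36.5% and 32.7% for K36M, and 35.5% and 34.4% for K9M. The 3 groups overlapped. The other 1377 CpGs of HoxD were at 6.01% in WT, 7.26% and 6.09% for K36M, and 5.42% and 5.47% for K9M, so K36M replicate 1 was highest and both K9M libraries lowest outside the stretch as well.

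Within the stretch, levels switched between neighbouring tiles. The tile upstream of the Hoxd4 start, chr2:74559001-74560000, was at 60.4% in WT, 57.7% and 53.3% for K36M, and 62.9% and 63.9% for K9M. The next one, chr2:74560001-74561000, was at 12.9% in WT, 7.97% and 13.2% for K36M, and 8.68% and 11.8% for K9M. Farther along, chr2:74563001-74564000 averaged 80.1%, chr2:74566001-74567000 64.5% and chr2:74567001-74568000 79.9%, and between them chr2:74565001-74566000 with 28 CpGs averaged 12.2%. High tiles in the stretch held 4 to 11 CpGs. The highest CpG of either cluster lay here, at position 74566471, at 102% in WT, 97.4% and 86.7% for K36M, and 103% and 101% for K9M.

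**Figure D2:**
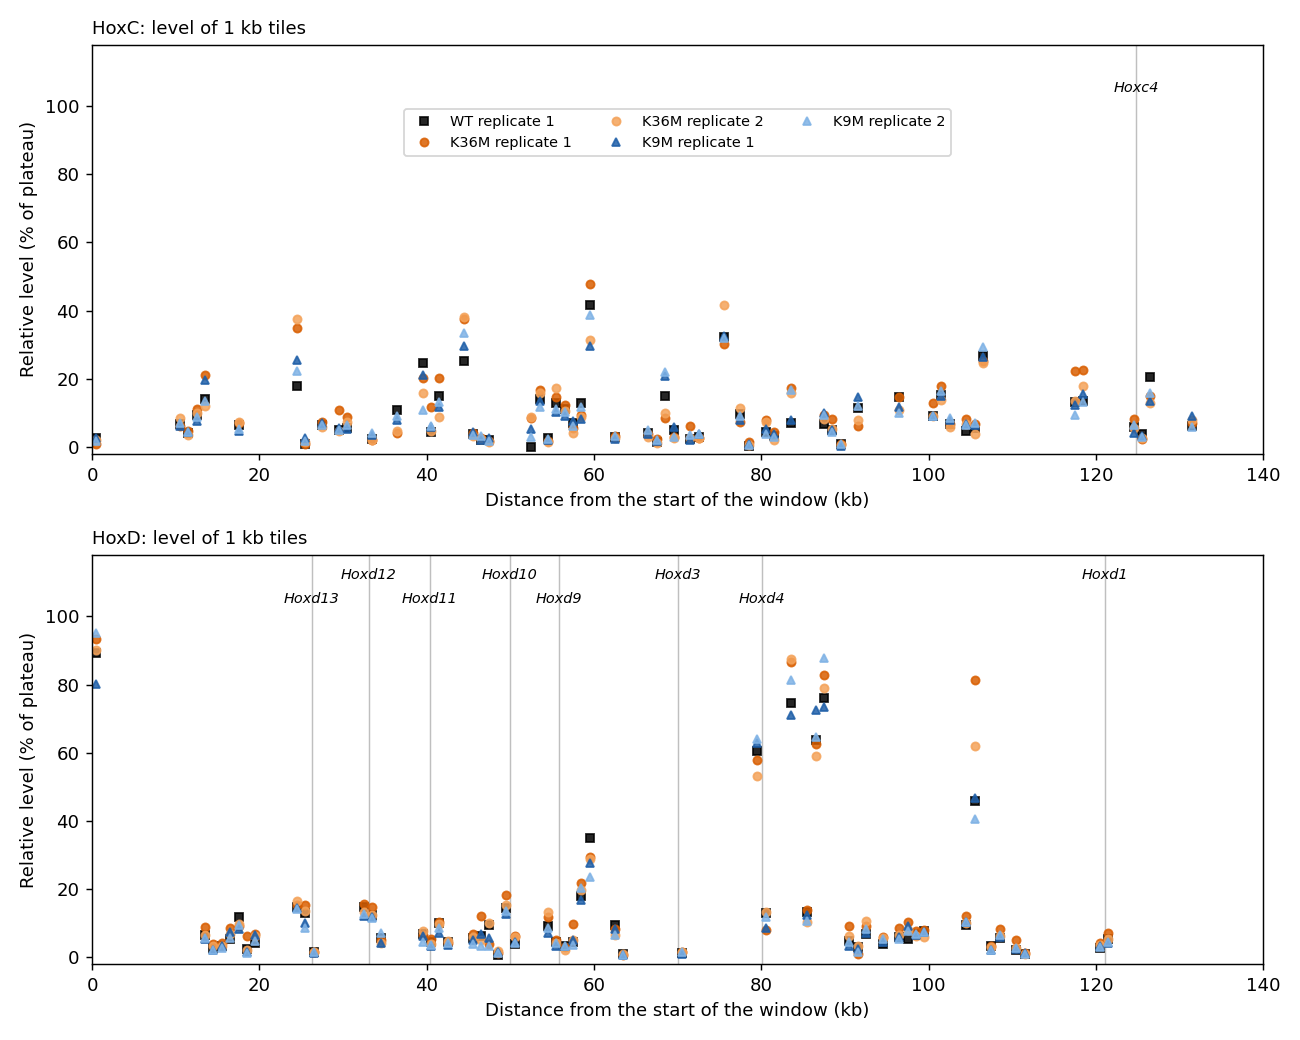
Relative level, in percent of the plateau, of every tested 1 kb tile along HoxC (top, 58 tiles) and HoxD (bottom, 55 tiles), against distance from the start of the window in kb. Each point is 1 library, and grey lines mark the starts placed by CpG spacing. No tested HoxC tile averages above 37.9%, and the HoxD tiles above 50% lie at the 5′ edge, next to and after Hoxd4, and in 1 tile before Hoxd1.

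Placed promoters followed the same pattern, with Hoxd4 and Hoxd12 the highest. Hoxd4, an anterior gene expressed from the hindbrain backwards, was at 21.7% in WT, 20.02% and 20.04% for K36M, and 23.7% and 18.8% for K9M over 4 CpGs. In the printed sequence the mean level was lowest at the CG nearest the start. It was 20.01% at the CG 164 bases before the start, 39.9% at 135 bases before and 13.2% at 27 bases before. The CG on the start itself, just past the printed bases, was at 4.96%. The K9M libraries lay on both sides of WT.

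Hoxd12, one of the posterior genes of the cluster active in the distal limb and genital bud, was at 13.4% in WT (10.7% to 16.7%), 16.1% and 12.2% for K36M, and 10.8% and 10.6% for K9M over 13 CpGs. Both K9M libraries were below WT and both K36M libraries, and the lower of them lay just under the WT counting interval. Its CpGs ranged from 0% to 30.5%. The 6 CGs between 207 and 119 bases before the start averaged 7.57% to 30.5%, and the 4 between 70 and 37 bases before it averaged 0% to 7.12%. At the CG without a methylated count, 70 bases before the start, the WT second count of 24 allows a level of up to 10.1%.

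Other HoxD promoters were under 6% in every library. Hoxd11, a posterior limb and kidney gene, was at 4.52% in WT, 5.58% and 4.12% for K36M, and 3.74% and 3.95% for K9M over 26 CpGs, at the second of its 2 listed starts. Hoxd13, the most posterior gene of the cluster, averaged 2.82% over 4 CpGs. Hoxd10, which patterns lumbar motor neurons, averaged 2.62% over 6 CpGs. Hoxd9, which acts in the forelimb, averaged 3.49% over 14. Hoxd3, an anterior gene needed for the first neck vertebrae, was the lowest at 0.986% over 7 CpGs. Hoxd1, the most anterior gene, was at 2.16% in WT, 4.16% and 2.52% for K36M, and 2.62% and 2.59% for K9M over 29 CpGs. WT was the lowest library there and K36M replicate 1 the highest. Ordered by level, Hoxd3, Hoxd10, Hoxd1, Hoxd13, Hoxd9 and Hoxd11 each overlapped the next in library range. Read within libraries, Hoxd11 exceeded Hoxd9 in every library, while the other neighbouring pairs did not keep their order in every library. Differences between promoters were not tested.

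Hoxc4, an anterior HoxC gene also known in lymphocytes, was at 7.501% in WT (3.50% to 14.3%), 10.4% and 4.67% for K36M, and 5.33% and 6.89% for K9M over 4 CpGs. The K36M libraries lay on both sides of the others. Of its printed CGs, the one 42 bases before the start averaged 15.7% and the one 20 bases before it 1.91%.

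**Figure D3:**
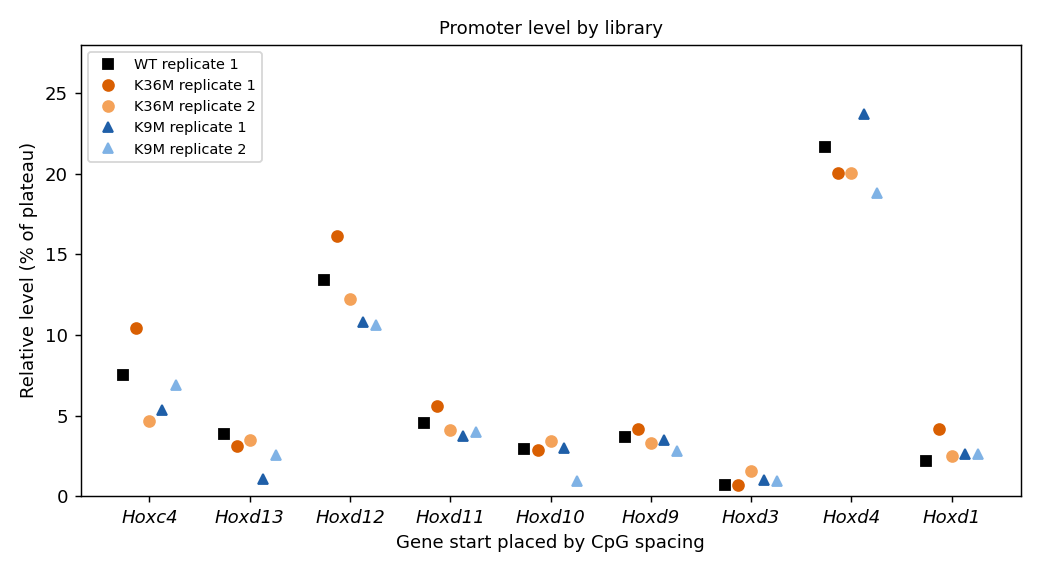
Relative level, in percent of the plateau, over the measured CpGs from 250 bases before to 50 bases after each placed start, for each of the 5 libraries. Each point is 1 library. Hoxd4 lies at 18.8% to 23.7% and Hoxd12 at 10.6% to 16.1%, and the other HoxD promoters lie under 6%.

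The first comparison asks what the lysine 36 form changed relative to WT. No tile of the 113 tested was lower or higher in K36M by the call rule, an adjusted p under 0.05 with at least 10 points between group means in the moderated logistic model with Benjamini-Hochberg adjustment over all tiles. Of all autosomal tiles 0.476% were called lower and 0.0144% higher. Of the 113 tiles 101 averaged under 20%, and a tile under 10% cannot lose 10 points. Only 2 tiles in HoxC and 2 in HoxD differed by 10 points or more here. The rule could thus call few of them, and 0 calls do not show that the level was unchanged. At an unadjusted p under 0.05, 7 HoxC tiles and 0 HoxD tiles were lower (3.86% of all tiles), and 5 and 7 were higher (1.40%). These shares, like the other shares of all tiles here and below, are not matched for level. Of all tiles 75.6% stood at 50% or more. limma on relative levels called 0 in either direction, where 0.168% of all tiles were lower and 0.00327% higher. The lowest adjusted p was 0.0801 in HoxC and 0.531 in HoxD. The median tile difference, K36M minus WT, was 0.23 points in HoxC and 0.85 points in HoxD, against 0.0764 points over all tiles under 20%. Those tiles had lower median levels in every library.

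The largest single difference from WT was at chr2:74585001-74586000 in HoxD, between the stretch and Hoxd1. Its 5 CpGs were at 46.0% in WT (36.5% to 57.7%), 81.4% and 62.1% for K36M, and 46.8% and 40.5% for K9M. Both K36M libraries were above the other 3. The difference of 25.8 points from WT had an adjusted p of 0.618, and that of 28.1 points from K9M one of 0.189, by the moderated logistic model, beside an SD of 13.6 points between the K36M libraries. The largest in HoxC was at chr15:102764001-102765000, at 17.9% in WT (11.6% to 26.98%), 34.9% and 37.5% for K36M, and 25.6% and 22.3% for K9M. Here too both K36M libraries were the highest, with an adjusted p of 0.427 against WT by the same model. Tiles chr15:102784001-102785000 and chr15:102823001-102824000 also had both K36M libraries above WT and did not pass (adjusted p of 1 and 0.513, moderated logistic model). At the second of them limma on levels as deposited gave an adjusted p of 7.5e-05 with 8.62 points, under the 10 points of the call rule.

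The second comparison asks the same of the lysine 9 form. No tile was called lower or higher in K9M than in WT, and 0.0275% of all tiles were called lower and 0.0504% higher. At an unadjusted p under 0.05, 1 HoxC and 3 HoxD tiles were lower (1.26% of all tiles), and 3 and 1 were higher (1.64%). limma on relative levels called 0 as well, against 0.0190% lower and 0.0262% higher over all tiles. The median tile difference, K9M minus WT, was 0.18 points in HoxC and -0.63 points in HoxD. No tile reached 10 points. The largest in HoxD was at chr2:74539001-74540000, at 35.0% in WT, 29.5% and 28.9% for K36M, and 27.6% and 23.6% for K9M. WT was the highest library there, and the difference did not pass (adjusted p of 1, moderated logistic model).

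The third comparison sets the mutants against each other, with both groups on doxycycline. Of 113 tiles, 1 was called lower in K36M than in K9M (0.885%), against 1.22% of all tiles, and none was called higher, against 0.0701%. The 1 call is near the background share. At an unadjusted p under 0.05, 7 HoxC and 0 HoxD tiles were lower in K36M (5.54% of all tiles), and 7 and 12 were higher (1.90%). With limma on relative levels 1 tile was called lower and 0 higher, against 0.707% and 0.0295% of all tiles. Comparing low tiles with low tiles, 6 of 53 HoxC tiles and 11 of 48 HoxD tiles under 20% were higher at that p, against 6.67% of all tiles under 20%. The 7 HoxC tiles lower in K36M were under 20% as well, and no share of all low tiles is given for that direction. All tiles under 20% are not matched in level either. Their library medians were 0.822% to 0.976%, against 5.59% to 8.23% over all tested HoxC or HoxD tiles. The 3 comparisons share libraries, so their counts are not independent of each other.

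The called tile was chr15:102808001-102809000 in HoxC, whose 5 measured CpGs lie within 74 bases. It was at 15.03% in WT (11.7% to 19.1%), 8.65% and 9.96% for K36M (mean 9.30% ± 0.927, SD, n = 2), and 20.9% and 22.1% for K9M (mean 21.5% ± 0.830, n = 2). K36M was lower than K9M by 12.2 points, with an adjusted p of 0.0137 by the moderated logistic model, and WT lay between them. WT differed from neither by the call rule (adjusted p of 0.589 for K36M and 1 for K9M, same model).

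Across this tile the level was higher at the last CpG than at the first in every library, without rising at each step. At its first CpG, position 102808120, WT was at 3.0%, K36M at 0% and 2.04%, and K9M at 5.60% and 4.28%. The 0% of K36M replicate 1 rests on a second count of 40, which allows up to 6.17%. At its last, position 102808193, WT was at 41.4%, K36M at 30.3% and 28.7%, and K9M at 62.4% and 46.0%. At all 5 CpGs both K36M libraries were below WT and both K9M libraries above it. These CpGs share reads and are 1 observation rather than 5. The adjacent tile chr15:102807001-102808000, with 26 CpGs, averaged 1.72%, with overlapping groups. The call was lost without any 1 of the mutant libraries (adjusted p of 0.131 to 0.280, with differences of -12.9 to -11.5 points) and with tiles shifted by 500 bases, which gave 0 calls.

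**Figure D4:**
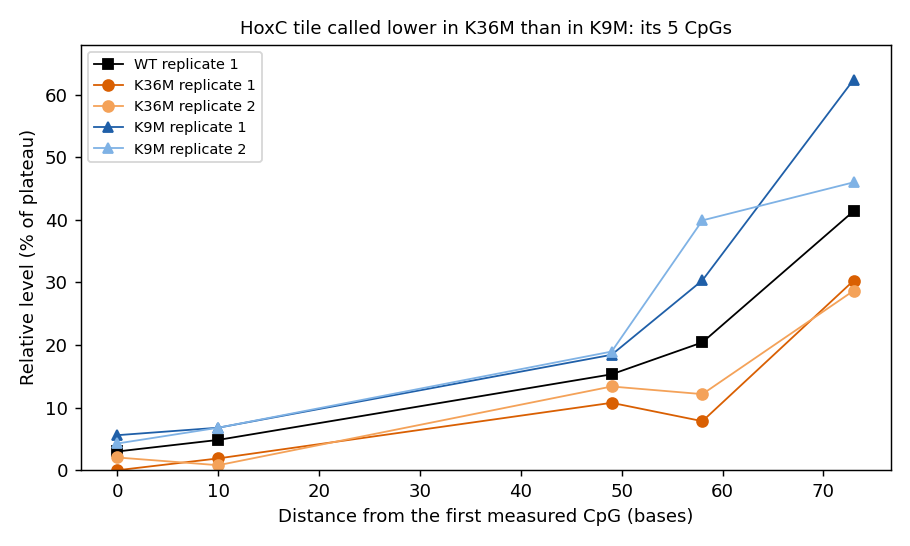
Relative level, in percent of the plateau, at the 5 CpGs of the HoxC tile called lower in K36M than in K9M, against distance in bases from the first of them. Each line is 1 library. Both K36M lines run below WT and both K9M lines above it, from 0% to 5.60% at the first CpG and 28.7% to 62.4% at the last.

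In HoxD the K36M and K9M libraries separated in direction at many low tiles without any passing the test. Both K36M libraries were above both K9M libraries at 27 of 55 HoxD tiles and 14 of 58 HoxC tiles, against 12.9% of all tiles. The reverse held at 3 HoxD and 13 HoxC tiles, against 29.0%. Among tiles under 20% the first count was 24 of 48 in HoxD and 12 of 53 in HoxC, against 25.5% of all such tiles, whose median levels were lower. The median tile difference, K36M minus K9M, was 1.20 points in HoxD and 0.20 points in HoxC. The lowest adjusted p of HoxD in this comparison was 0.0981 by the moderated logistic model.

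The highest values were not spread evenly over the libraries. K36M replicate 1 was the highest of the 5 libraries at 33 of 55 HoxD tiles and 26 of 58 HoxC tiles, against 33.6% of all tiles under 20% and 20.6% of all tiles. Without it, the tiles higher in K36M than in K9M at an unadjusted p under 0.05 numbered 6 in both clusters together, in place of 19, in a fit with 1 residual degree of freedom that had 1.17% of all tiles there. The count was 8 without K9M replicate 1 (1.05% of all tiles), 7 without K9M replicate 2 (1.18%) and 20 without K36M replicate 2 (2.24%), in fits with the same degrees of freedom. The count thus fell without either K9M library as well as without K36M replicate 1, and the part of any library in the direction was not tested. Tile profiles were otherwise alike between libraries, with Spearman's rho of 0.849 to 0.951 over the 58 HoxC tiles and 0.890 to 0.955 over the 55 HoxD tiles for the 10 pairs of libraries.

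Single CpGs gave no call in any comparison, in the clusters or among all 1780536 CpGs (0%), with the logistic model fitted per CpG. At an unadjusted p under 0.05, none of the 2330 differed between K36M and WT (0.180% of all CpGs) or between K9M and WT (0.0643%). Between K36M and K9M 1 HoxC and 4 HoxD CpGs did so (0.403% of all CpGs). Even over all CpGs these shares lie far below the 0.05 that the threshold allows without any difference. The test per CpG was thus conservative, and its counts do not show that single CpGs were unchanged. Outside the tested tiles, 11 tiles held only 1 or 2 members. The highest of these were chr2:74558001-74559000, at 78.9% on average over 2 CpGs at the edge of the methylated stretch, and chr15:102869001-102870000 past Hoxc4, at 54.5% over 2 CpGs.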

How the data were processed

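RRBS data of 5 libraries were used. The tools cutadapt and BSMAP and the build mm9 are listed, without versions or roles, in the submitters' processing notes. Each deposited table gives, per CpG, a methylation fraction and a total count, per the values; no source used here says how that fraction was computed. The methylated count was the fraction times the total, rounded. It was whole within 0.01 for 100% of sites in 4 libraries and for 89.2% in K9M replicate 2, which was therefore read on another scale. Intervals are 95% exact (Clopper-Pearson) intervals of the methylated share of both counts, carried to the ratio, limits of a 0 use 3 counts, and both cover counting error only, since PCR duplicates are not marked.

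Tiles of 1 kb with at least 3 CpGs (152678 on 19 autosomes) were fitted together with a logistic model, a library offset for the plateau, and quasi-binomial dispersion moderated with limma 3.58.1 in R 4.3.3 (squeezeVar, trend, floor 1, 2 residual degrees of freedom). The fit was also run on simulated data, and no outcome of that run is used here. WT, a single library, has to borrow its spread from the mutants. Dispersion lay above the floor in 40.7% of the cluster tiles, and the rest were tested at the floor. Tables were handled in Python 3.11.15 with pandas 2.3.3.

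Named tiles were those called, the 6 highest and the 3 with most CpGs in each cluster, and the 3 with the largest difference per comparison. The genes and tiles were chosen with earlier results of these data known. Of the 12 HoxC genes listed 1 had a promoter sequence, and of the 13 HoxD genes 11 had one. Placement used positions counted from 1. All 25 fully matched promoters of chromosome 19 fell at the same position in mm9 as in GRCm38.p6. The alternatives tried were coverage minimums of 5 and 20, a plateau from the top 40% of tiles, limma on relative and deposited levels, shifted tiles, leaving out each library, and the replicate number as a block.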

Additional observations from a re-analysis of the deposited data

How the results depend on the processing

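The 0 calls of K36M against WT, K9M against WT and the higher direction of K36M against K9M held under every alternative fitted. In each of these comparisons the fits without a mutant library called fewer tiles genome-wide than the main fit. The replicate block called none genome-wide, so the 0 calls of these fits say little on stability. The 1 tile called lower in K36M than in K9M was called under coverage minimums of 5 and 20, a plateau taken from 40% of tiles and limma on relative or deposited levels. The count was 0 with tiles shifted by 500 bases and 0 with the replicate block (adjusted p = 0.403 at the named tile, moderated logistic model). Leaving out 1 library gave 0 to 1 calls, 1 only without WT. Those fits without a mutant library have 1 residual degree of freedom and called 67 to 594 tiles lower genome-wide in place of 1870, and the block fit called 0, so they say little on stability. Same-numbered K36M and K9M libraries deviated together with a correlation of 0.0773 over all tiles, and the numbers are not taken as pairs.

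Pooled levels moved by more than the replicate spread or counting interval as follows. As means of tile levels they were 9.22% in WT, 10.1% in K36M and 9.30% in K9M for HoxC, and 13.9%, 15.1% and 13.4% for HoxD. As means of deposited levels HoxC was at 7.41% in WT and 7.46% in K9M, and HoxD at 6.86% and 6.72%. At a coverage minimum of 20, HoxC was at 6.46% in WT and 6.54% in K9M, and HoxD at 6.49% in K9M. A minimum of 5 gave 6.83% in HoxC and 6.65% in HoxD for K9M. The plateau from the top 40% gave 6.86% for HoxC K9M, and 7.35% and 6.72% for HoxD in WT and K9M. Shifting tiles does not touch pooled levels.

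Of 183 values at single tiles and of placement under alternatives, 176 kept direction and side of the call rule, 5 were weaker and 2 reversed. Among the 176, limma on levels as deposited took the adjusted p under 0.05 with under 10 points at 3 tiles, K36M minus WT at chr15:102823001-102824000 (7.5e-05), K9M minus WT at chr2:74527001-74528000 (-4.98 points, 4.0e-05) and K36M minus K9M at chr15:102857001-102858000 (5.38 points, 0.00766). Levels as deposited leave K9M replicate 2 on a scale of its own, by the reading used here. With them, K9M minus WT was 0.59 points at chr15:102799001-102800000 and K36M minus K9M was -11.5 points at chr2:74563001-74564000. The cause of these 2 reversals was not tested. The placement of 9 genes in place of 6 came from the looser rule. Single CpGs were fitted under 1 setting.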
